A study of Sus scrofa with 8 samples.

Results

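CREBBP, AEBP2, YY1 and PHF10 are 4 genes whose products act on chromatin, and they were chosen by name from the 458 genes for which the dorsal subcutaneous fat of each pig has a value. All 4 names were found, once each. Of a further table of 10710 genes, only the mean over the pigs was used, for levels. CREBBP and AEBP2 were overexpressed in Bísaro (BI) pigs, by 2.16-fold and 2.28-fold, while YY1 and PHF10 were overexpressed in Alentejano (AL) pigs, by 1.60-fold and 2.03-fold. In each of the 4 genes no AL pig lay within the range of the BI pigs.

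The products of these genes belong to different machines that open or close chromatin. CREBBP, the CREB binding protein, acetylates histones and is recruited by the cAMP-responsive factor CREB, by nuclear receptors and by many other factors, in a role it shares with its close relative EP300. AEBP2 is a zinc finger protein that accompanies the core of Polycomb repressive complex PRC2, which methylates histone tails and keeps developmental genes silent. YY1 is a zinc finger transcription factor that can activate or repress, and that works with the INO80 remodelling complex. PHF10 carries PHD fingers and is a subunit of PBAF, a form of the BAF (SWI/SNF) remodelling complex. In fat, cofactors of these kinds are known to take part in the differentiation of preadipocytes and in the response of adipocytes to hormones.

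The AL group held replicates 44, 49, 52 and 63 and the BI group replicates 25, 34, 36 and 37, and values of a breed are given below in that order. All were purebred castrated males of a Portuguese local breed, kept free range, fed commercial diets ad libitum and sampled at slaughter at about 150 kg, a weight that the labels call carcass weight. AL pigs had been longer on trial on average than BI pigs, so that breed and time on trial cannot be told apart, and ages and RNA quality per pig are not given in the sources used here. Each pig gave 1 stranded paired-end mRNA library. The values are normalized counts, in which a size factor per pig corrects the counts for sequencing depth.

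The size factors were 0.675 to 1.10 in AL and 1.058 to 1.46 in BI (two-sided exact permutation test, p = 0.0571). The reads counted on the 458 genes numbered 495789 to 883622 per AL pig and 359708 to 636180 per BI pig. Fat markers were present but uneven, with authors' means of 1567 normalized counts for PLIN1, 672.5 for FABP4, 274 for LIPE and 173 for ADIPOQ. The other listed adipocyte markers had less, at 164 for CEBPA, 97.7 for LPL, 77.5 for LEP and 10.9 for PPARG. Markers of other cell types were present too, also unevenly. CSF1R of macrophages had 1385 and CD68 50.6, and the muscle markers CKM, MYH7 and ACTA1 had 987, 14.5 and 5.002. In bulk tissue fewer cells of a type and less RNA per cell cannot be told apart. The 458 genes had been called by the authors for a breed difference in these same pigs. The tests below therefore describe how far the pigs lie apart and are not independent evidence.

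In the RefSeq annotation of Sscrofa11.1, CREBBP (ENSSSCG00000007951) lies on the plus strand of chromosome 3 from 38388366 to 38530243 and has 31 exons. AEBP2 (ENSSSCG00000000587) lies on the minus strand of chromosome 5 from 53617362 to 53691487, with 9 exons. YY1 (ENSSSCG00000037558) lies on the plus strand of chromosome 7 from 121132168 to 121170699, with 5 exons. PHF10 (ENSSSCG00000030155) lies on the plus strand of chromosome 1 from 555649 to 576781 and has 7 annotated transcripts of 11 to 12 exons. The 250 bases before each annotated start, in the direction of the gene, are printed from the RefSeq genome because the 4 genes moved in opposite pairs and a reader may want their promoters side by side. Capitals mark GC boxes, the letters GGGCGG on either strand. The regions are chr3:38388116-38388365 (plus strand) for CREBBP, chr5:53691488-53691737 (minus strand) for AEBP2, chr7:121131918-121132167 (plus strand) for YY1 and chr1:555399-555648 (plus strand) for PHF10.
CREBBP: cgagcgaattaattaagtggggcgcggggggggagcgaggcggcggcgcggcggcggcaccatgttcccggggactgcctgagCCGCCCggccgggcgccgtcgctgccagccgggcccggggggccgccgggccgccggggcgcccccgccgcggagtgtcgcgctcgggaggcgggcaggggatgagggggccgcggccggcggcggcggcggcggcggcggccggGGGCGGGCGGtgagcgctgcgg
AEBP2: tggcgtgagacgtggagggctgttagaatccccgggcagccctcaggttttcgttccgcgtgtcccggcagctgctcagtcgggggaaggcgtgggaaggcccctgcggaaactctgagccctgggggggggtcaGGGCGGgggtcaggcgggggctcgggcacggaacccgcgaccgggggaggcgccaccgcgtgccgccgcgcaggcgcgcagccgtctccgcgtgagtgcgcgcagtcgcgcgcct
YY1: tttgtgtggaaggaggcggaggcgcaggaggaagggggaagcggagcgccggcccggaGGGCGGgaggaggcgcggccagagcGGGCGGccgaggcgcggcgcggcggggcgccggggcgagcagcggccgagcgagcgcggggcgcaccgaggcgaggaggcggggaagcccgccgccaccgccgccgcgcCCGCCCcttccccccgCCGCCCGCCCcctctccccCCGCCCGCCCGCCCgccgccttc
PHF10: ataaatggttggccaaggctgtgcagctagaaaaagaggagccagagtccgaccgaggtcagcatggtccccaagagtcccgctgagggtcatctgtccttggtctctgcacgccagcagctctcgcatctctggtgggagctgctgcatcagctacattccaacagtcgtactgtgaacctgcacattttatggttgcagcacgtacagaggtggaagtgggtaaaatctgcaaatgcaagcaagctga

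The promoters did not divide as the directions did. Those of CREBBP and YY1, which differed in direction, were the richest in G and C, at 84.8% and 84.4%, against 74.4% for AEBP2, 53.2% for PHF10 and a median of 57.2% over the 20651 promoters read in the same way. The ratio of observed to expected CpG was 1.11 for CREBBP, 0.979 for AEBP2, 0.992 for YY1 and 0.398 for PHF10, with a median of 0.595. GC boxes were counted 3 times for CREBBP, of which those at -22 to -17 and -18 to -13 overlap, and 1 time for AEBP2. YY1 held 8, also with overlaps, and PHF10 held 0, where 44.5% of all promoters held at least 1. The searches on both strands for a cAMP response element (TGACGTCA, in 1.63% of promoters), its short form TGACG (19.2%), a YY1 motif (AANATGGC, 3.45%), CCAAT (32.0%), an ETS motif (CCGGAAG, 7.48%), an NRF1 motif (GCATGCGC, 2.20%) and TATAAA (10.4%) found none of these letters in any of the 4 windows. For PHF10, whose annotated transcripts do not all share 1 start, the window belongs to the outermost start only.

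The normalized counts of CREBBP were 43.0, 41.7, 53.8 and 30.5 in AL, and 141, 105, 83.1 and 54.2 in BI. BI replicate 25 was the highest, and BI replicate 37 lay beside AL replicate 52, so that the breeds came close without overlapping. The means were 42.2 ± 9.49 in AL and 96.0 ± 36.8 in BI (SD, n = 4), so that the log2 fold change (log2 FC, AL minus BI, computed on log2(normalized count + 1)) came to -1.11 with a standard error of 0.33. A two-sided exact permutation test returned p = 0.0286, the smallest that 4 pigs against 4 allow, and 0.0359 after Benjamini-Hochberg adjustment over the 458 genes. The gap between the 2 nearest pigs was 0.410 normalized counts, less than the value of 1 read in either pig. Counting error alone covered 39.9 to 70.9 for AL replicate 52, from 50 reads, and 41.8 to 69.0 for BI replicate 37, from 65 reads (exact 95% Poisson intervals).

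AEBP2, the PRC2 accessory subunit, was the least abundant of the 4 genes. Its normalized counts were 14.8, 18.1, 12.9 and 11.95 in AL, and 32.9, 43.3, 21.7 and 42.5 in BI. BI replicate 36 was the lowest of its breed and still above AL replicate 49, the highest AL pig, by 3.59 normalized counts. The means were 14.5 ± 2.73 in AL and 35.1 ± 10.1 in BI (SD, n = 4), with a log2 FC of -1.19 (standard error 0.26) and the same exact permutation p of 0.0286. These values rest on 9 to 20 reads per AL pig and 23 to 63 per BI pig. The Poisson intervals of the nearest pigs, 11.08 to 28.01 for AL replicate 49 and 13.8 to 32.6 for BI replicate 36, overlapped over most of their length.

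YY1 stood at 761, 1037, 929 and 976 normalized counts in AL, and at 686, 497, 560.3 and 573 in BI. AL replicate 44 and BI replicate 25 came nearest to the other breed, with 75.5 normalized counts between them, and their Poisson intervals of 697 to 830 and 642 to 732 overlapped. The means were 926 ± 118 in AL and 579 ± 78.5 in BI (SD, n = 4), and the log2 FC of 0.68 had a standard error of 0.14 (p = 0.0286 by exact permutation). This was the smallest change of the 4 genes, and by size it ranked 450 of the 458 genes. The breeds overlapped for YY1 when the values were rescaled over the 458 genes, as given with the scalings.

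PHF10 was the most abundant of the 4 genes, with 1799.8, 1559, 1256 and 1801 normalized counts in AL against 668, 622, 788 and 1138 in BI. AL replicate 52 was the lowest AL pig and BI replicate 37 the highest BI pig, and 117 normalized counts lay between them. Their Poisson intervals, 1185 to 1329.8 and 1079 to 1200.3, overlapped only at their ends. The means were 1604 ± 258 in AL and 804 ± 233 in BI (SD, n = 4), and the log2 FC of 1.02 had a standard error of 0.23 (p = 0.0286 by exact permutation). It stayed at 0.51 without overlap under 1 rescaling over the 458 genes, and at 0.37 with overlap under the other.

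**Figure D1:**
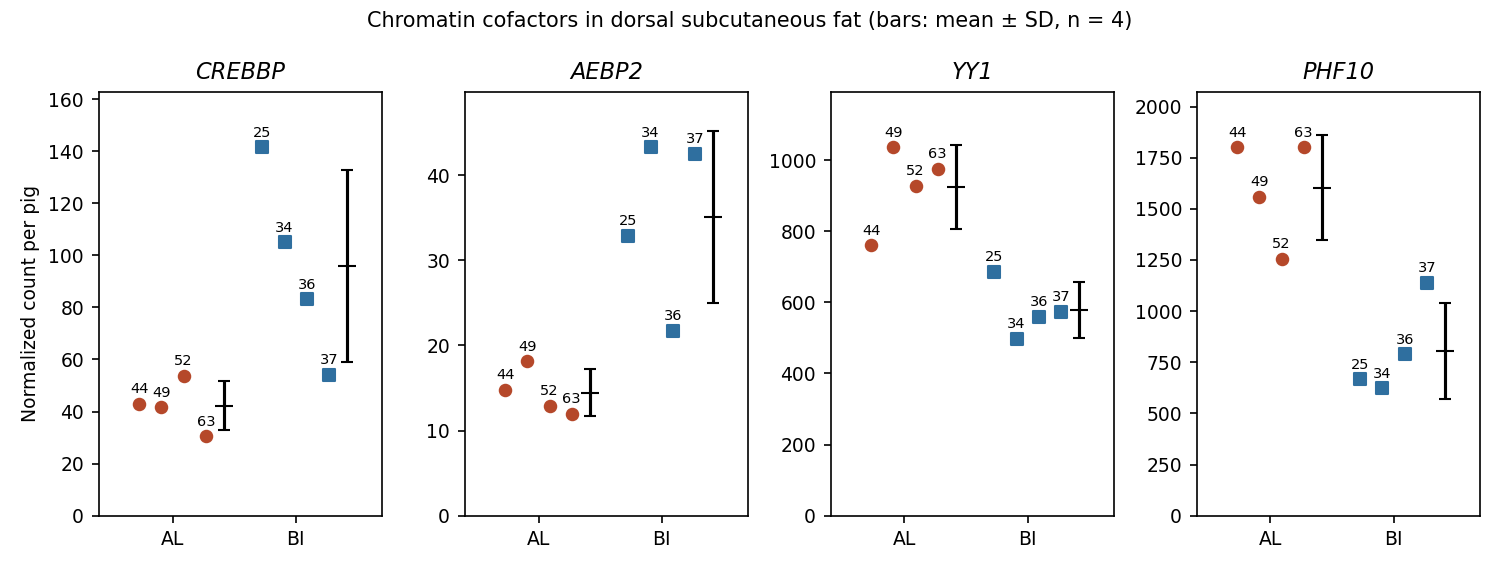
Normalized count of each pig (vertical axes from 0, one scale per gene), with circles for AL, squares for BI, the replicate number above each point and bars for the mean ± SD of 4 pigs. CREBBP and AEBP2 are higher in every BI pig, YY1 and PHF10 in every AL pig, and CREBBP of AL replicate 52 (53.8) and BI replicate 37 (54.2) nearly touch.

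The breeds did not overlap in 4 of the 4 genes, where this held for 79.5% of the 458 genes. Of the 4, 2 were higher in AL and 2 in BI, against 48.3% and 31.2% of the 458 genes that were higher without overlap in AL and in BI. Neither the separation nor its direction set the 4 genes apart from the other genes called by the authors. Their changes ranked 226 (AEBP2), 264 (CREBBP), 310 (PHF10) and 450 (YY1) by size among the 458 genes. With limma, the adjusted p was 0.00948 for CREBBP, 0.00521 for AEBP2, 0.0158 for YY1 and 0.00724 for PHF10, and limma called 455 of the 458 genes. With edgeR on the reads recovered from the values, the log2 FC was -1.18, -1.27, 0.677 and 0.996, and edgeR called all 458 genes.

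The 2 genes higher in BI were the scarce ones. Over all 8 pigs, CREBBP had 639 reads and AEBP2 231, against 6158 for YY1 and 9438 for PHF10. The called genes showed the same at large, with a median mean of 35.3 normalized counts over the 195 genes higher in BI and 294 over the 263 higher in AL. They also differed in length, with a median of 4127 exon bases in the genes higher in BI and 2883 in those higher in AL. The 4 genes have 8618 (CREBBP), 4753 (AEBP2), 5974 (YY1) and 2196 (PHF10) exon bases. What part abundance or length had in the directions was not tested.

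Per kilobase of exon, the order of the normalized counts was PHF10, YY1, CREBBP and AEBP2 in both breeds. Exon lengths were taken from RefSeq, while the authors used Ensembl release 94. The strand setting of the counting is not given, and whether all counts come from the named genes was not tested. The AL means were 730.3, 155, 4.90 and 3.04 normalized counts per kilobase, and the BI means 366, 97.0, 11.14 and 7.38. PHF10 was above YY1 and YY1 above CREBBP in 8 of 8 pigs, while CREBBP was above AEBP2 in 7 of 8. The ranges of CREBBP and AEBP2 overlapped in each breed, at 3.54 to 6.24 and 2.51 to 3.82 in AL and at 6.28 to 16.4 and 4.57 to 9.10 in BI. Among the 10710 genes with a mean, PHF10 ranked 348 by mean normalized count (1204), YY1 542 (752), CREBBP 2140 (69.1) and AEBP2 3867 (24.8).

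The spread within a breed differed between the genes. The variance between pigs was 11.7 times (AL) and 14.5 times (BI) that expected from counting alone for YY1, and 35.4 and 86.6 times for PHF10. For CREBBP it was 17.3 times in BI but 1.76 times in AL. For AEBP2 it was 3.31 times in BI, and in AL, at 0.491 times, the pigs differed by no more than counting gives.

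Ratios of 2 of the genes within a pig do not depend on the size factor. Where 1 gene was AL-high and the other BI-high, the breeds had to separate, and these ratios are given as a description. YY1 had 17.7, 24.8, 17.3 and 32.0 reads per CREBBP read in AL, and 4.85, 4.73, 6.74 and 10.6 in BI. Each AL pig was above each BI pig, and the mean log2 ratio was 1.78 higher in AL. PHF10 had 41.9, 37.4, 23.4 and 59.0 reads per CREBBP read in AL and 4.72, 5.92, 9.48 and 21.0 in BI, a difference of 2.13 in mean log2 ratio. Here BI replicate 37 came close to AL replicate 52.

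Against AEBP2 the differences were of similar size. YY1 had 51.4 to 81.7 reads per AEBP2 read in AL and 11.5 to 25.8 in BI, with a difference of 1.87 in mean log2 ratio. PHF10 had 86.0 to 151 in AL and 14.4 to 36.3 in BI, with a difference of 2.21. In both ratios each AL pig was above each BI pig.

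Ratios of genes that moved in the same direction overlapped between the breeds. AEBP2 had 0.345, 0.435, 0.240 and 0.391 reads per CREBBP read in AL and 0.232, 0.412, 0.261 and 0.785 in BI, and the mean log2 ratio differed by -0.08. BI replicate 37, low in CREBBP and high in AEBP2 within its breed, was the highest pig. YY1 had 0.423 to 0.740 reads per PHF10 read in AL and 0.504 to 1.03 in BI, with a difference of -0.35.

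**Figure D2:**
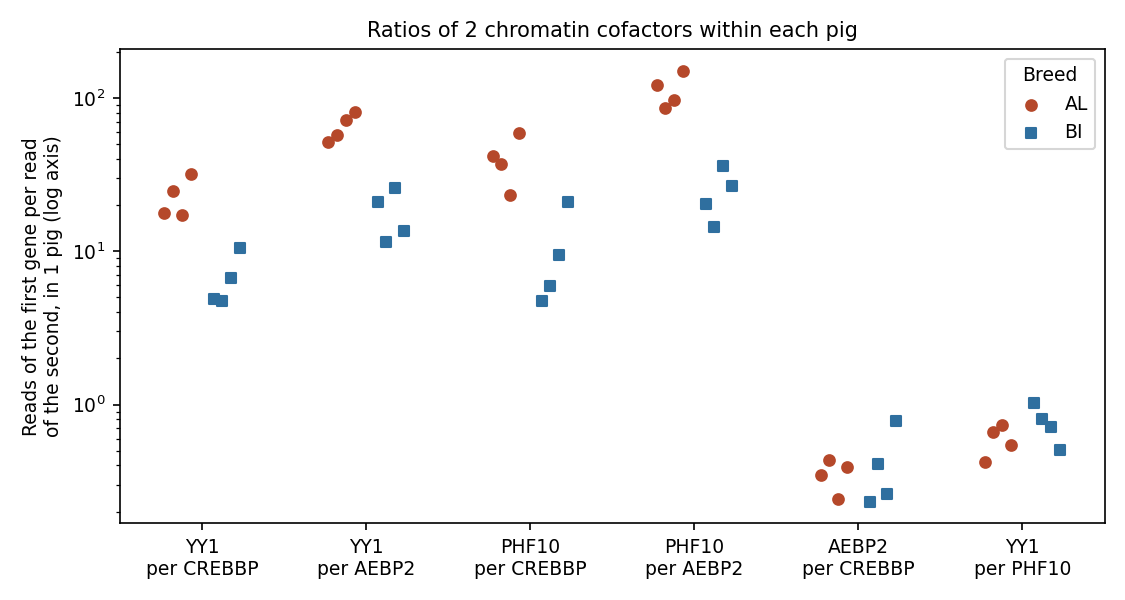
Reads of the first gene per read of the second in each pig (vertical axis logarithmic), with circles for AL and squares for BI. The 4 ratios of an AL-high to a BI-high gene separate the breeds, as for YY1 per AEBP2 (51.4 to 81.7 in AL, 11.5 to 25.8 in BI), while AEBP2 per CREBBP and YY1 per PHF10 overlap.

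The sizes of the changes depended on the scaling. When size factors were recomputed as a median of ratios over the 458 genes, the median log2 FC of all 458 genes moved from 0.83 to 0.31, a shift of -0.51. The log2 FC was then -1.61 for CREBBP, -1.68 for AEBP2, 0.51 for PHF10 and 0.16 for YY1, whose breeds then overlapped (exact permutation p = 0.4). With the same upper quartile in each pig, the shift was -0.64, and the log2 FC was -1.74, -1.81, 0.37 (PHF10, exact permutation p = 0.0571) and 0.03 (YY1, exact permutation p = 0.914). Under the first scaling 102 genes were higher in AL and 171 in BI without overlap, and under the second 60 and 176, against 221 and 143 as deposited. Both rest on the called genes alone, whose median log2 FC as deposited was 0.83, so that a downward shift was built in. A scaling acts on all genes of a pig alike, so that it cannot alter the ratios of reads above. The higher level of YY1 in AL passed the test with the deposited scaling and not with these 2. Because of the built-in shift, these 2 scalings cannot decide whether YY1 differs between the breeds.

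**Figure D3:**
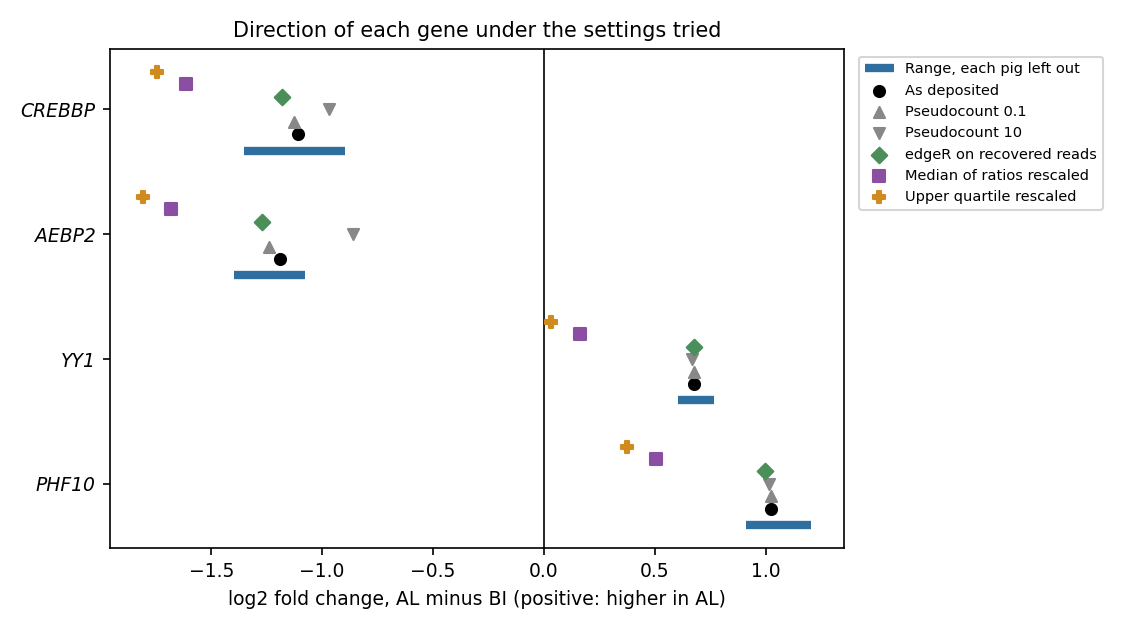
The log2 FC of each gene (horizontal axis, AL minus BI) as deposited, under other pseudocounts, scalings and edgeR, with a bar for the range when single pigs were omitted. CREBBP and AEBP2 stay below 0 and PHF10 above 0 throughout, and YY1 falls to 0.16 and 0.03 under the rescalings.

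With any single pig omitted, the log2 FC ranged between -1.35 and -0.90 for CREBBP, -1.40 and -1.08 for AEBP2, 0.61 and 0.77 for YY1, and 0.91 and 1.20 for PHF10. The exact permutation p rose to 0.0571 for CREBBP, AEBP2 and PHF10 without any 1 of the 4 AL pigs, and for YY1 without BI replicate 34, and it was 0.0286 with any other pig omitted. Leaving out a pig cannot make separated breeds overlap, so the breeds stayed separated in all 4 genes. With 3 pigs against 4 there are 35 splits, and at 0.0571 another split gave a difference at least as large.

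The partners of the 4 genes were looked up in lists of acetyltransferases, Polycomb, INO80, BAF and heterochromatin proteins, 134 genes in all. A mean was given for 105 of them, and 8 (7.62%) had values per pig, against 4.28% of the 10710 genes. The 4 genes described here are among these 8 by choice, so that only MEAF6, PCGF2, ARID1B and CBX1 were added. The lists were also written with the called genes known. The 7.62% therefore does not show that chromatin genes were called more often than others. Of the 8 the breeds did not overlap in 7, and 4 were left with the upper quartile. Without any 1 of the 4 AL pigs 2 to 3 passed the exact test, though the 7 stay separated when a pig is left out. ARID1B, a subunit of BAF, had 4.44, 18.1, 8.60 and 9.30 normalized counts in AL and 36.7, 22.0, 26.5 and 23.3 in BI (log2 FC -1.45, standard error 0.40). Hence PHF10 and ARID1B, both of the SWI/SNF family, were changed in opposite directions, each without overlap of the breeds as deposited. ARID1B rests on 3, 20, 8 and 7 reads in the AL pigs, and for PHF10 the breeds overlapped under the upper quartile.

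PCGF2, a subunit of Polycomb repressive complex PRC1, had 2124, 2579, 2299.6 and 3027 normalized counts in AL and 945, 1216, 1874 and 1715 in BI (log2 FC 0.84, standard error 0.25). AEBP2 of PRC2 was changed the other way. CBX1, a heterochromatin protein that binds methylated histones, had 61.7 to 69.9 in AL and 29.3 to 45.8 in BI (log2 FC 0.96, standard error 0.16). MEAF6, a subunit of several acetyltransferase complexes, had 11.9, 7.25, 6.45 and 1.33 in AL and 14.5, 17.9, 11.3 and 66.7 in BI, and the breeds overlapped (log2 FC -1.76, standard error 0.76, exact permutation p = 0.0571).

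For the other partners only the authors' mean over the 8 pigs was used, with no value per breed. Per kilobase of exon, the levels were 2.43 for EP300, the relative of CREBBP, 3.12 for the acetyltransferase KAT2B and 9.36 for the coactivator NCOA3, beside 8.02 for CREBBP. Of PRC2, the methyltransferases EZH1 and EZH2 were at 0.844 and 1.10, EED at 3.04, SUZ12 at 76.5 and JARID2 at 8.35, beside 5.21 for AEBP2. INO80 was at 3.92, and its partner RUVBL1 at 449. Of the PBAF subunits, PBRM1 was at 10.7, ARID2 at 3.75 and BRD7 at 18.2, and the ATPase SMARCA4 was at 6.88, beside 548 for PHF10. Among the 105 genes PHF10 ranked 6 per kilobase, YY1 12, CREBBP 39 and AEBP2 45, and the median of the list was 3.92. Subunits of 1 complex thus had mean normalized counts per kilobase far apart in this tissue. Because the strand setting of the counting is not given, it was not tested whether these counts come from the named genes alone.

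The study's list for HOTAIR, a long noncoding RNA that binds PRC2, holds CREBBP, AEBP2 and YY1 among its 10 genes. It was chosen from these samples and is no independent evidence of direction. Of the 10 genes, 5 were higher in AL and 3 in BI without overlap, beside 48.3% and 31.2% of the 458 genes, and the median log2 FC was -0.11, beside 0.83. The 8 fell to 3 with the median of ratios and to 4 with the upper quartile. By the exact test 5 passed without any 1 of the 4 AL pigs, though the 8 stay separated when a pig is left out. With YY1, the RNA-binding protein ELAVL1 (log2 FC 0.99), the metalloprotease MMP24 (0.92), the matrix protein SPP1 (2.08) and the ligand WNT8B (1.85) were higher in AL. With CREBBP and AEBP2, the transcription factor STAT3 was higher in BI, at 33.6 to 43.8 normalized counts in AL and 59.6 to 85.2 in BI (log2 FC -0.90). For the adhesion molecule ICAM1 (log2 FC -1.53, exact permutation p = 0.0857) and PIK3R4 (-1.22, exact permutation p = 0.114) the breeds overlapped.

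**Figure D4:**
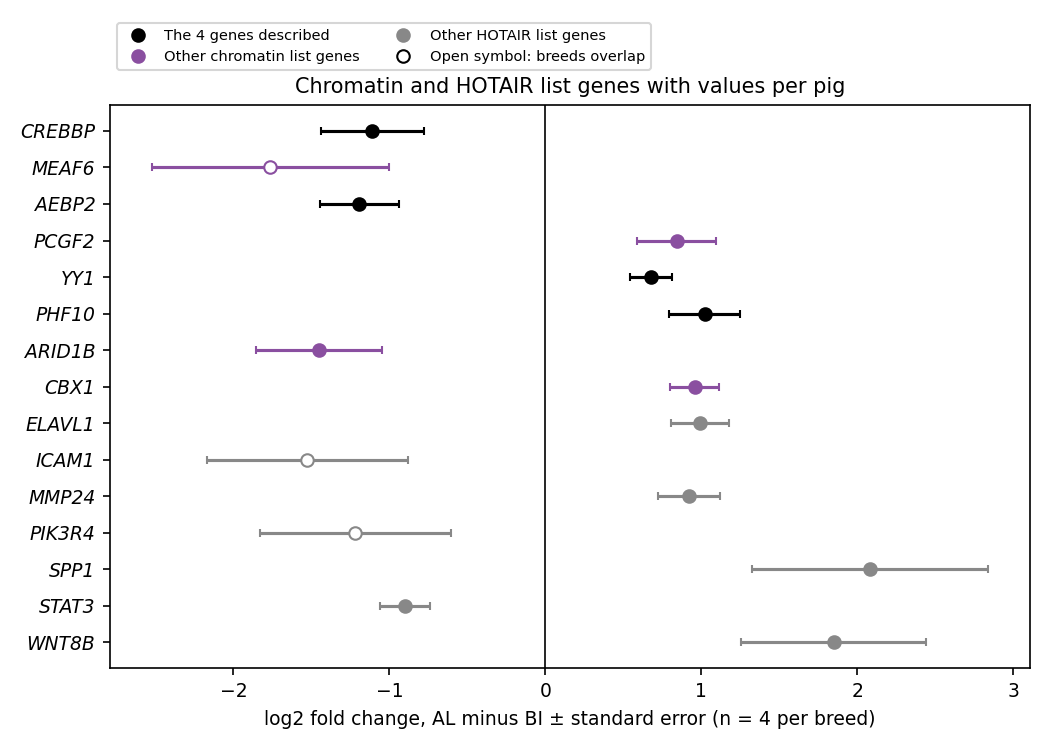
The log2 FC (horizontal axis, AL minus BI) ± standard error (n = 4 per breed) of the genes of the chromatin and HOTAIR lists that have values per pig, with open symbols where the breeds overlap. Genes of both lists lie on either side of 0, from -1.76 (MEAF6) to 2.08 (SPP1), and MEAF6, ICAM1 and PIK3R4 have open symbols.

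Genes that respond to cAMP and CREB, the pathway from which CREBBP has its name, were looked up in a list of 14 genes. Of these, 12 had a mean and 8 had values per pig, against 4.28% of the 10710 genes. JUNB, NR4A1, NR4A2 and NR4A3 had a mean but no values per pig, as they were not called by the authors. Higher in BI without overlap were 5 of the 8, the immediate-early factors FOS (log2 FC -1.21), FOSB (-2.10) and EGR1 (-1.28), the kinase SIK1 (-1.28) and the phosphatase DUSP1 (-1.48), and 0 were higher in AL, where 31.2% of the 458 genes were higher in BI without overlap. The count was 6 and 7 under the rescalings. Without any 1 of the 4 BI pigs 2 to 3 passed the exact test, though the 5 stay separated when a pig is left out. The other 3, PER1 (-1.06), ATF3 (-2.17) and PCK1 (-2.42), overlapped (each exact permutation p = 0.0571). The median log2 FC of the 8 was -1.38, the same sign as CREBBP, beside 0.83 over the 458 genes. Many of these genes also respond to growth factors and stress, and their list was written with the called genes known.

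Markers of cell types moved between the breeds too. Only genes called by the authors have values per pig, 4.28% of the 10710 genes. Of 8 adipocyte markers 3 had values per pig (FABP4, LEP and CEBPA), and their sum was 1079.9 to 1501 normalized counts in AL and 523 to 755 in BI. FABP4 led this sum, with means of 909 in AL and 436 in BI. For LEP and CEBPA the breeds overlapped (each exact permutation p = 0.0571). ADIPOQ, which has no values per pig, is given by the paper as numerically higher in BI without significance. Of 8 endothelial markers 4 had values, with sums of 2195 to 3651 in AL and 1402 to 2012 in BI, led by EGFL7, while TIE1, CLEC14A and DLL4 were higher in BI. The leukocyte marker IL2RA, 1 of 6, was at 7.25 to 19.4 in AL and 21.7 to 77.2 in BI. Of 6 muscle markers 2 had values, with sums of 183 to 268 in AL and 93.4 to 139.99 in BI, led by MYBPH (means of 206 and 90.2), while MYH7 lay the other way (4.84 in AL and 24.2 in BI) with overlap. None of the markers with values per pig was at 0 in any pig, and their part in the breed differences of the 4 chromatin genes was not tested.

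Likeness of other genes to the 4 over the pigs was measured as the root mean square difference of log2(normalized count + 1), centred on the mean of the 8 pigs, to 410 genes with a symbol. Nearest to CREBBP were ANKRD11 (0.139), ADAMTS10 (0.175) and PLEKHG5 (0.204), against a median of 1.14 over the 410 genes. ANKRD11 had a mean of 232 normalized counts in AL and 438 in BI. Nearest to AEBP2 were DIDO1 (0.212), FBF1 (0.281) and PPM1A (0.295), with a median of 1.10.

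Among the genes nearest to YY1 were STYXL1 (0.206) and CHAD (0.206), with a median of 0.775. Nearest to PHF10 were NEK4 (0.0785), FAM161B (0.113) and VPS52 (0.114), with a median of 0.718, and NEK4 had a mean of 1960.1 normalized counts in AL and 1044 in BI. Among the 4 chromatin genes the difference was 0.381 between YY1 and PHF10 and 0.528 between CREBBP and AEBP2, and 0.984 to 1.26 for pairs of opposite direction. Each of the 4 thus had other called genes closer to it than its partner in direction.

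Of the 4 genes, only PHF10 shares exon bases with another annotated gene. It shares 261 exon bases with C1H6orf120 on the opposite strand, whose authors' mean was 203 normalized counts, and it has WDR27 at 1710 bases and TCTE3 at 3631 bases on its own strand. The gene DEGS2, with a mean of 385, begins 556 bases from the start of YY1 on the opposite strand. CREBBP has a noncoding neighbour, LOC102160050, on the opposite strand at 2560 bases, and AEBP2 has none within 5 kb. The strand setting of the counting is not given in the sources used here, so that reads of PHF10 and C1H6orf120 in the shared bases cannot be told apart.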

How the data were processed

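Libraries of 8 pigs (4 AL, 4 BI; 1 each) were analysed. The authors trimmed the reads with Trim Galore 0.5.0, aligned them to Sscrofa11.1 (Ensembl release 94) with HISAT2 2.1.0 and counted them per gene with HTSeq 0.11.1, with SAMtools 1.9 between, and they state a filter on the reads of a group. For the 458 called genes, the deposited signal per pig is the count per gene over the DESeq2 size factor, computed by the authors, and the deposited mean per gene is the mean of that signal over the 8 pigs. Their own columns of log2 fold change, its standard error, statistic, p and adjusted p were not used, and 0 columns belonged to other samples.

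The log2 FC was the difference of mean log2(normalized count + 1), which understates changes of scarce genes, and it was tested by exact permutation (two-sided, 70 ways to choose 4 of 8 pigs), adjusted over the 458 genes. Values in all 8 pigs were whole multiples of 1 step, to within 0.01 of a read (100% of values), so that size factors and reads could be recovered. In 5 pigs few low values bear on this step, and edgeR, run on all 8, rests on it. Poisson intervals cover counting error only. Genes named were the 4, the genes of the lists with values per pig, and the 3 most alike per gene, of which 1 is not reported here. The members and lists were chosen with earlier results of these data known. The promoter window and motifs were chosen after the values were seen.

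Alternatives were pseudocounts of 0.1 and 10, 2 rescalings, a mean of at least 50, the exact rank-sum test, limma, edgeR, and leaving out each pig. The calculations were tested on simulated data of 458 genes for 4 AL against 4 BI pigs, with a single fixed dispersion. Of 200 genes changed by a log2 FC of 2, 97% passed the exact test at 0.05, while 1.55% of unchanged genes did. Changes as small as those of the 4 genes were not simulated. Python 3.11.15 (NumPy 2.4.6, pandas 2.3.3, SciPy 1.17.1, Matplotlib 3.10.9) and R 4.3.3 (limma 3.58.1, edgeR 4.0.16) were used.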

Additional observations from a re-analysis of the deposited data

Results flagged for a closer look

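Of 46 breed groups of 4 pigs, over 23 genes of the lists, 5 held a pig whose gap to the nearest of the other pigs was a larger share of the range of the group than Dixon's 95% critical value, where chance gives about 1 group in 20. None was a value of CREBBP, AEBP2, YY1 or PHF10. BI replicate 37 stood apart in 3 of them, with 66.7 normalized counts of MEAF6 (the other BI pigs 11.3 to 17.9), 45.8 of CBX1 (29.3 to 31.4) and 195 of FOSB (283 to 291). BI replicate 36 had 404 normalized counts of EGR1, against 284 to 299 in the other BI pigs. AL replicate 52 had 98.9 of PER1, against 43.5 to 50.5 in the other AL pigs.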

How the results depend on the processing

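No change of the 4 genes turned direction under the 15 alternatives tried for each. The log2 FC of YY1 fell to 0.16 (median of ratios) and 0.029 (upper quartile), and that of PHF10 to 0.37 (upper quartile), and these no longer passed the exact test. Leaving out a pig gave -1.35 to -0.90 for CREBBP, -1.40 to -1.08 for AEBP2, 0.61 to 0.77 for YY1 and 0.91 to 1.20 for PHF10. The exact p was then 0.0571 for CREBBP, AEBP2 and PHF10 without any 1 AL pig and for YY1 without BI replicate 34. The breeds stayed separated in the 4 genes. At 0.0571 another of the 35 splits of 3 against 4 pigs gave a difference at least as large. By the exact test without a pig, 201 to 349 of the 458 genes passed (364 with all pigs), 2 to 6 chromatin genes (7), 5 to 8 HOTAIR genes (8) and 2 to 5 cAMP and CREB genes (5). Leaving out a pig cannot undo a separation, so these lower counts do not show a lost separation. With the upper quartile the counts were 236, 4 chromatin and 4 HOTAIR genes. With the median of ratios 3 HOTAIR genes were left, and with genes of mean 50 or more only, 4 chromatin genes. With limma and with edgeR 8 cAMP and CREB genes passed. The difference in log2 ratio of AEBP2 per CREBBP reversed from -0.08 to 0.11 (pseudocount of 10), 0.09 (without AL replicate 52) and 0.27 (without BI replicate 37), with -0.31 to 0.27 over all single pigs left out. No paired analysis was made, because the labels do not match AL pigs with BI pigs. Counts of 9 to 63 reads per pig limit AEBP2.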
